A study of Schizosaccharomyces pombe with 6 samples.

Results

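The regions described here are the gaps between neighbouring transcribed stretches that lie in tandem, that is, on the same strand. The densely tiled part of the arrays, probes sp40c_1 to sp40c_147000, was read as 73500 positions, each a pair of probes with an odd and an even number, and odd and even numbers stand for the opposite strands. A probe counted as on when the input RNA was well above background on all 6 arrays, and a stretch was a run of 10 or more on probes of the same strand across which single off probes were bridged. Of the 1951 stretches, 981 lay on odd and 970 on even probes. Neighbours in the order of their first probe enclosed 1619 intervals of at least 1 position, of which 891 lay between stretches of the same strand. Of these 891, 685 spanned 3 to 29 positions and are the gaps described here, 354 between odd and 331 between even stretches. The remaining tandem intervals were shorter (119) or longer (87).

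RNA was purified from Schizosaccharomyces pombe cells whose genomic Red1 (strain p919), Mtl1 (p920) or Red5 (p1160) carried at its C terminus the FTP tag (Flag, TEV cleavage site, protein A), in cells grown in YEA medium at 30 °C. Each of the 6 arrays (2 biological replicates for each of the 3 baits) compared the IPed RNA, in Cy5, with the input in Cy3, which was total RNA of that strain. The dyes were not swapped and an untagged strain was not analysed here, so every ratio is relative to the input and to the median probe of its array. All values are log2 of IP over input, centred on the array median, and a class value is the mean over gaps, taken per array.

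MTREC is a nuclear complex built on the helicase Mtl1 and the zinc-finger protein Red1, with Red5 as an RNA-binding partner in a module with the poly(A)-binding protein Pab2. It hands cryptic unstable transcripts (CUTs) and meiotic mRNAs to the nuclear exosome, the nuclease that degrades them. CUTs arise antisense inside genes, antisense from promoters (PROMPTs) and downstream of genes in the sense direction (3′IGTs), so a gap between genes that follow each other on the same strand can hold RNA of either strand.

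The files used here tie no probe to a base position, a gene or a sequence, so gaps are named by the numbers of their first and last probe and no sequence is shown. Which strand is forward is also not given. The end of a stretch on the lower-numbered side for odd probes, and on the higher-numbered side for even probes, is called its A end, and the other its B end. Each gap was read from the B end of the stretch before to the A end of the next stretch, and its same strand is the strand of these stretches.

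The gaps held 6939 positions, 9.44% of the dense part, and spanned a median of 7 positions. Of the 685 gaps, 263 spanned 3 to 5 positions, 140 spanned 6 to 9, 190 spanned 10 to 19 and 92 spanned 20 to 29. They touched 1135 of the stretches, and 235 stretches had a gap on either side, so neighbouring gaps share flanks. The rule made the same strand mostly silent in the input. Of the 6939 same-strand probes in the gaps, 51.0% were off on every array, 32.6% were on on some arrays and 1138 were on on all 6, in runs too short to count as a stretch. The rule also limited the opposite strand, since stretches of both strands were sorted together and an interval in which a stretch of the opposite strand began was no tandem gap. Of the opposite-strand probes 56.6% were off on every array and 18.3% on on all. In 327 gaps no opposite-strand probe was on, in 131 more than 30% were, and in 13 a stretch of the opposite strand reached into the gap.

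Across the whole arrays the share of tile probes well above background ran from 47.1 to 57.5% in the input and from 55.3 to 67.3% in the IP, with none saturated, and replicate 2 of Mtl1-FTP had the highest input share. By the scan labels, the 3 arrays of replicate 1 shared slide 1. Of the replicate 2 arrays, Red1-FTP and Red5-FTP were on slide 2 and Mtl1-FTP alone was on slide 3.

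RNA of the opposite strand was enriched in the gaps with all 3 baits, and more so than RNA of the same strand. The opposite-strand ratio was 1.38 and 0.83 in the replicates of Red1-FTP, 1.13 and 1.22 in those of Mtl1-FTP, and 1.34 and 0.99 in those of Red5-FTP. Its mean was 1.15 ± 0.21 (SD, n = 6 arrays). Input was well above background at 24.3% of these probes, so the size of the ratio rests largely on input near background. The same-strand ratio was 0.42 and 0.13 with Red1-FTP, 0.37 and 0.28 in Mtl1-FTP, and 0.32 and 0.12 with Red5-FTP, with a mean of 0.27 ± 0.13 (SD, n = 6). The lowest opposite-strand value lay above the highest same-strand value. The arrays of slide 2 were the lowest on either strand, with an opposite-strand mean of 0.91 against 1.28 on slide 1 and 1.22 on slide 3, and the part of slide in this spread was not tested.

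Within each array the opposite strand exceeded the same strand by 0.69 to 1.02, a mean of 0.87 ± 0.12 (SD, n = 6, higher in 6 of 6). The two-sided exact permutation test over the 64 sign patterns gave p = 0.031, the smallest p that 6 arrays allow, and an adjusted p of 0.0391 over the 15 contrasts computed. The difference was 0.91 on slide 1, 0.78 on slide 2 and 0.94 on slide 3. Because the input that chose the gaps is also the denominator of the ratio, the stretches were chosen again from the 3 inputs of either replicate number and read on the arrays of the other number, and the difference was then 0.86, positive on 6 of 6 arrays (exact permutation p = 0.031, adjusted p = 0.0391). In the 186 gaps with input well above background at no more than 20% of the values of either strand, a subset chosen after seeing the data, it was 1.11. The test takes the arrays as independent, and a deviation that slides share would make its p too small.

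**Figure D1:**
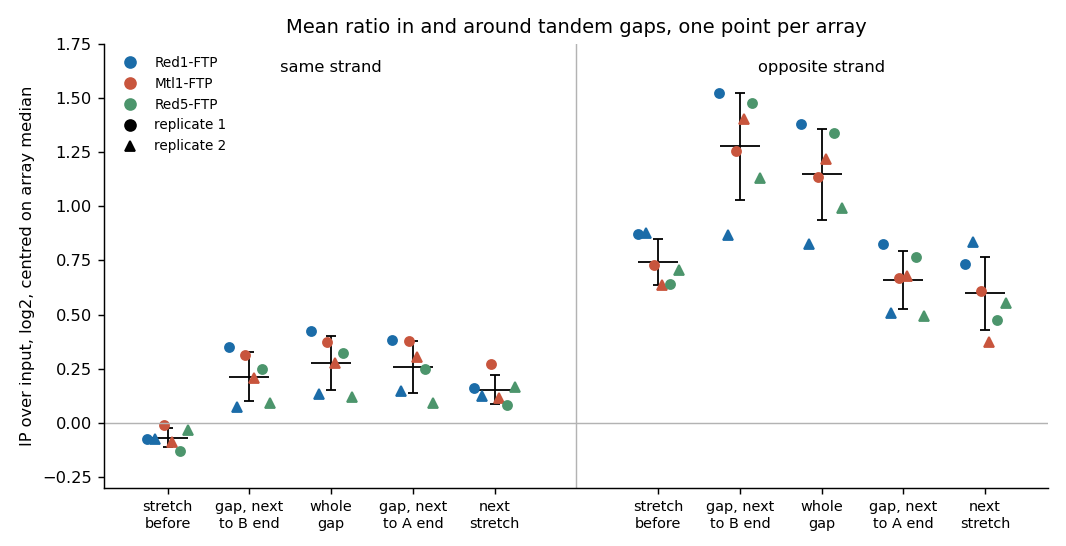
Mean IP over input (log2, vertical axis) on the same strand (left) and the opposite strand (right) of the 685 tandem gaps, in the 10 positions of the stretch before, next to its B end, in the whole gap, next to the A end and in the 10 positions of the next stretch. Points are arrays, coloured by bait with a circle for replicate 1 and a triangle for replicate 2, and the bars give the mean ± SD over the 6 arrays; the opposite strand of the whole gap lies between 0.83 and 1.38 and the same strand between 0.12 and 0.42.

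Fitted gap by gap with limma, 510 of the 685 opposite strands (74.5%) were enriched at an adjusted p under 0.05 over the mean of the 3 baits, and 35 (5.11%) were depleted. Over all 7032 strand segments fitted, which are the stretches and the intervals of at least 2 positions on either strand, 48.9% were enriched and 14.0% depleted. Of the same strands of the gaps, 270 (39.4%) were enriched and 112 (16.4%) depleted. The opposite strands thus lay above the share of all segments for enrichment, and the same strands below it. Taken bait by bait, opposite strands were enriched in 404 gaps of Red1-FTP, 431 of Mtl1-FTP and 411 of Red5-FTP, beside 35.9%, 32.8% and 32.1% of all segments. The count for Mtl1-FTP fell without its replicate 2, and that for Red5-FTP without its replicate 1. The bait then rests on 1 array, so no count is given. Shares of all segments with an array left out are not given here. The 2 strands of a gap differed in 552 gaps (80.6%), with the opposite strand higher in 466 and lower in 86, and over all 3516 stretches and intervals 72.1% differed in either direction. Without replicate 2 of Mtl1-FTP, or without replicate 2 of Red5-FTP, 3.07% of the opposite strands were depleted, and without replicate 2 of Mtl1-FTP the depleted same strands were 10.4%.

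The split between enriched and depleted calls depends on the centre of the arrays. The mean of all probes lay 0.33 above their median (0.23 to 0.42 per array), and centred on the mean, 60.0% of the opposite strands were enriched and 15.8% depleted, while 23.8% of the same strands were enriched and 45.4% depleted. The shares of all segments move with the centre as well, and those for the mean centre are not given here. The 48.9% and 14.0% of the median centre do not apply there. The difference between the strands does not depend on the centre.

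Single probes gave the same order. Of the 6939 opposite-strand probes, 2933 (42.3%) were enriched and 470 (6.77%) depleted, and of the 6939 same-strand probes 1783 (25.7%) and 821 (11.8%). Among all 174063 tile probes, 27.0% were enriched and 14.1% depleted with all 6 arrays, and their shares with an array left out are not given here. Without replicate 1 of Red5-FTP 16.8% of the same-strand probes were enriched and 5.65% depleted, and 3.66% of the opposite-strand probes were depleted. Without replicate 2 of Red5-FTP the depleted shares were 6.90% and 3.70%.

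The gaps differed widely among themselves. Over the 685 gaps the opposite-strand ratio, as the mean of 6 arrays, had a median of 0.96 and ran from -0.81 to 5.06, with an SD between gaps of 1.10. It was above 0 on all 6 arrays in 462 gaps (67.4%) and on none in 30. The same-strand ratio had a median of 0.11 and ran from -1.76 to 4.76 (SD between gaps 0.73), above 0 on all arrays in 222 gaps (32.4%) and on none in 99. Across gaps, which are not independent replicates, the ratios of the 2 strands correlated at r = 0.30, and those of the gap and of the stretch before or after at 0.34 and 0.31 on the same strand and 0.27 and 0.22 on the opposite strand. The order of the gaps was shared by the baits, with r between 0.91 and 0.94 for the opposite-strand means of any pair of baits and between 0.86 and 0.95 for the replicates of a bait.

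**Figure D2:**
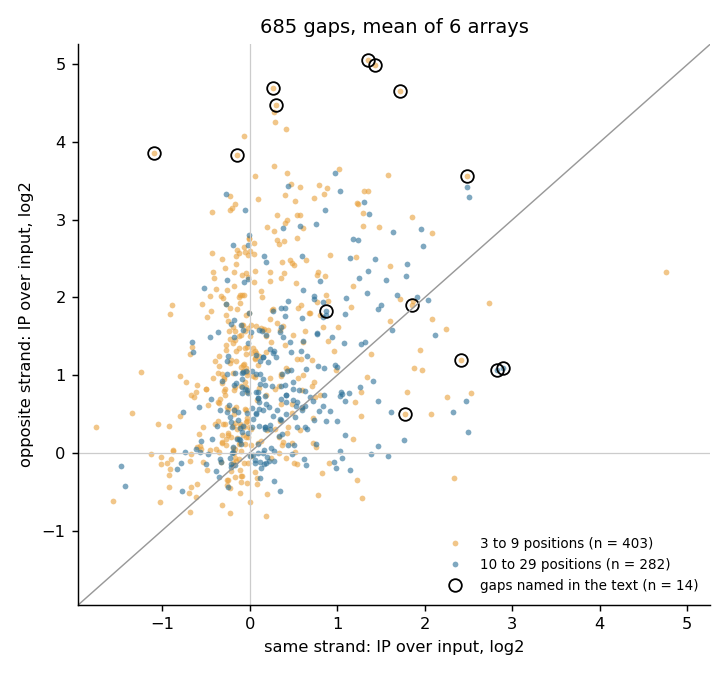
Mean IP over input (log2, 6 arrays) of each of the 685 tandem gaps, on the same strand (horizontal axis) and the opposite strand (vertical axis), with short gaps in orange, long gaps in blue and the 14 gaps named in the text circled. Most points lie above the diagonal line of equal values, and the opposite strand reaches 5.06.

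No gap strand differed between baits by limma at an adjusted p under 0.05. Of the 1370 strands, 0 were called in each of the 3 pairs of baits, beside 1, 0 and 1 of all 7032 segments (0.0142%, 0% and 0.0142%) for Red1-FTP against Mtl1-FTP, Red1-FTP against Red5-FTP and Mtl1-FTP against Red5-FTP. At an unadjusted p under 0.05 the counts were 104 (7.59%), 69 (5.04%) and 139 (10.1%), against 6.31%, 5.03% and 6.94% of all segments. With slide as a fixed block, 1 gap strand (0.073%) differed between Red1-FTP and Red5-FTP, beside 0.114% of all segments. Replicate 2 of Mtl1-FTP was alone on slide 3, so Mtl1-FTP rests on 1 array in that fit and no count is given for its pairs. With 2 arrays a bait, a count of 0 does not show that the baits bound the gaps alike.

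The purified RNA itself showed the same order of the strands. The IP channel played no part in choosing the gaps, while the input of either strand did. The IP was well above background at 55.0% and 39.7% of the opposite-strand probes of a gap with Red1-FTP, 47.0% and 54.4% in Mtl1-FTP, and 48.6% and 56.0% with Red5-FTP, a mean of 50.1%. On the same strand the shares were 39.8% and 29.8% with Red1-FTP, 34.3% and 41.0% in Mtl1-FTP, and 32.5% and 47.9% with Red5-FTP, a mean of 37.5%. The groups overlapped across arrays, but within each array the opposite strand was higher, by 12.6 ± 3.06 percentage points (SD, n = 6; exact permutation p = 0.031, adjusted p = 0.0391). With no bridging, which breaks stretches at every off probe and leaves 516 gaps, the difference was -7.26 points, negative on all 6 arrays. In the 186 gaps quiet on both strands it was 21.9 points, and with stretches chosen on the inputs of the other replicate number 16.3 points.

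The input detected the 2 strands at similar shares, 26.1% of the same-strand and 24.3% of the opposite-strand probes. Replicate 2 of Mtl1-FTP stood apart in the input, at 38.5% and 35.3%, and the other 5 arrays lay at 21.3 to 23.1% on the opposite strand. Probes with the IP but not the input well above background made up 27.8% of the opposite and 15.4% of the same strand. The difference was 12.4 ± 1.98 points in 6 of 6 arrays, a value given with no test, because the rule used the input flag to choose the gaps. On all 6 arrays at once, 637 opposite-strand probes (9.18%) had the IP above background on every array and the input on none, against 223 (3.21%) of the same-strand probes and 3.28% of all dense probes. They lay in 328 gaps on the opposite strand and 133 on the same strand, and formed runs of 3 or more in 32 and 10 gaps. The longest run was 5 positions on the opposite and 4 on the same strand. Such probes have no measured input, so their ratio has only a lower bound. The dense probes as a whole were not chosen by their input, so their 3.28% is not a matched background.

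**Figure D3:**
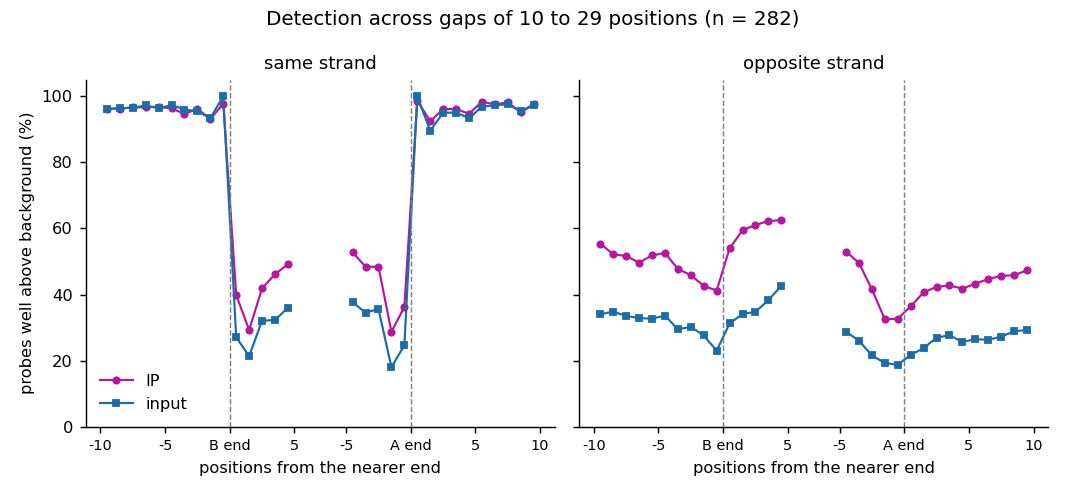
Share of probes well above background (percent, vertical axis) in the IP and the input, mean of 6 arrays, across the 282 gaps of 10 to 29 positions, with the last 10 positions of the stretch before, the 5 gap positions next to the B end and to the A end, and the first 10 positions of the next stretch. On the opposite strand the IP rises past the B end to 62.5% and falls to 32.7% at the A end. The input there also rises, to 42.7%, and falls to 18.7%. In the stretches the IP detected the same strand at 92.4 to 98.7% of the probes.

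The opposite strand differed between the ends of a gap. Next to the B end, over the first 3 positions of the 422 gaps of 6 or more positions, the opposite-strand ratio was 1.52 and 0.87 with Red1-FTP, 1.26 and 1.40 in Mtl1-FTP, and 1.48 and 1.13 with Red5-FTP, a mean of 1.28 ± 0.25 (SD, n = 6). Next to the A end it was 0.83 and 0.51, 0.67 and 0.68, and 0.77 and 0.49 for the same baits, a mean of 0.66 ± 0.13. Every value at the B end lay above every value at the A end. The A end was lower by 0.36 to 0.73 within arrays, with a mean difference of -0.62 ± 0.14 (SD, n = 6, lower in 6 of 6; exact permutation p = 0.031, adjusted p = 0.0391), and -0.68 with stretches chosen on the inputs of the other replicate number. On the same strand the ends gave 0.21 next to the B end and 0.26 next to the A end, and this difference, -0.05 ± 0.04, did not pass (exact permutation p = 0.0625, adjusted p = 0.0670).

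Counted back from the A end, the opposite strand was lower at the last position than at the fourth in gaps of every length. The longer classes had fallen by the third position, and gaps of 3 to 5 positions fell mostly after it. This profile was drawn after the class values were seen and is given as a description, with no test. In gaps of 20 to 29 positions the ratio was 1.16 ± 0.20 (SD, n = 6 arrays) at the fourth position from the A end and 0.78 ± 0.19 at the third. In gaps of 10 to 19 positions it was 1.35 ± 0.25 at the fifth and 0.83 ± 0.18 at the third, and next to the A end 0.46. In gaps of 6 to 9 positions it reached 1.97 ± 0.31 at the fifth, was 1.05 at the third and fell to 0.42 at the last position. In gaps of 3 to 5 positions it was 2.01 ± 0.39 at the fifth, over the 71 gaps that reach so far. It was still 1.63 at the third, then 0.95 at the second and 0.59 at the last. Short and long gaps were thus already apart at the third position. In gaps of 3 to 5 positions the fifth position from the A end is the first of the gap.

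Opposite the stretch before, short and long gaps differed. In gaps of 3 to 5 positions it was 1.47 ± 0.25 opposite the last position of the stretch before, 1.07 opposite the next position inward and 0.71 opposite the fourth. In gaps of 20 to 29 positions it was 0.24 ± 0.14 opposite the last position, below the 0.59 found opposite the tenth. The same strand of these stretches, which was on by the rule, stayed between -0.20 and 0.08 over the last 10 positions in all 4 length classes.

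**Figure D4:**
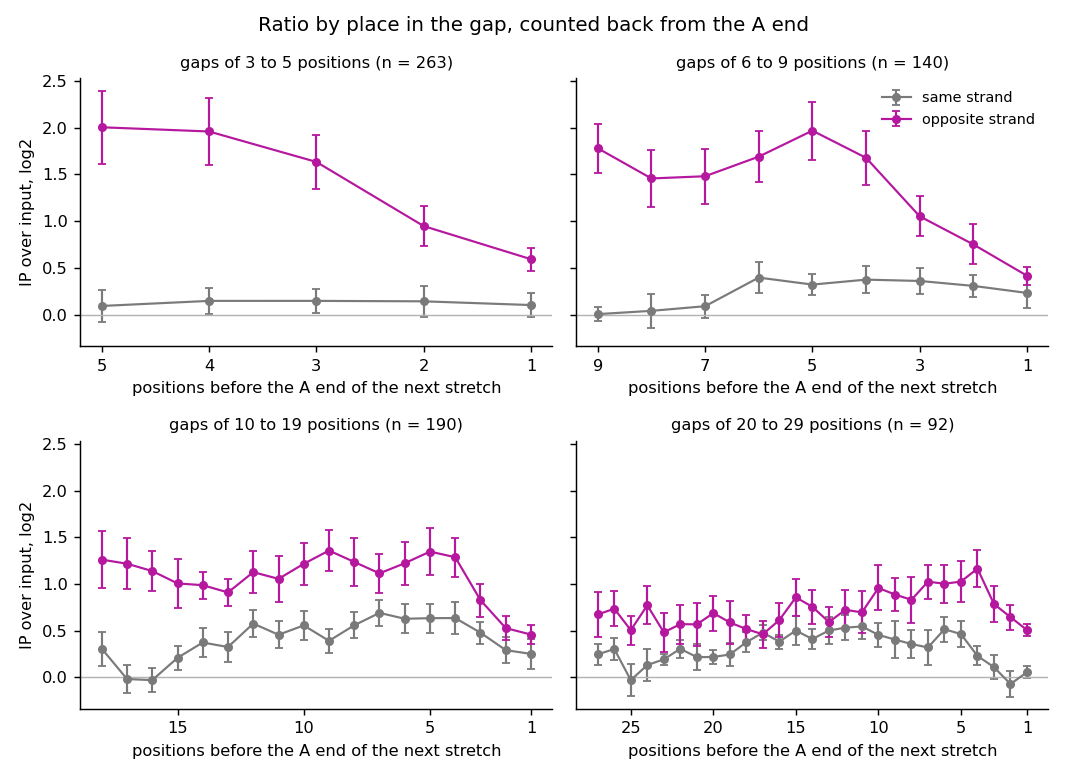
Mean IP over input (log2, vertical axis) by the number of positions before the A end of the next stretch (horizontal axis) in 4 classes of gap length, for the same strand (grey) and the opposite strand (magenta). Points are means and bars the SD over the 6 arrays; the opposite strand lies at 1.16 or above at the fourth position from the A end in every class and at 0.42 to 0.59 at the last position.

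Where the opposite strand peaked inside a long gap was repeated between arrays. In each of the 282 gaps of 10 to 29 positions the 3 neighbouring positions with the highest mean were found on the arrays of replicate 1 and read on those of replicate 2, a description chosen after the values were seen. Their mean was 2.37 on the replicate 2 arrays, against 0.50 for the rest of the gap. With the replicates exchanged it was 2.77 against 0.70. The place found on either set differed by no more than 2 positions in 242 gaps (85.8%), and its centre lay at a median of 7.5 to 8 positions from the A end. It lay closer to the B end than to the A end in 120 or 121 of 282 gaps (42.6 or 42.9%). The same strand gave 1.37 against 0.10 and 1.65 against 0.24, with 228 places repeated (80.9%). Of the 282 gaps, 190 spanned 10 to 19 positions and offer few places, so some places repeat by chance. The share expected by chance was not computed for either strand. The probes of a place are the same on all arrays, so whatever a probe adds to its signal on every array is included in these values.

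The opposite-strand ratio was higher and the same-strand ratio lower in short gaps. In the 403 gaps of 3 to 9 positions the opposite-strand ratio was 1.5 and 0.91 with Red1-FTP, 1.27 and 1.33 in Mtl1-FTP, and 1.48 and 1.12 with Red5-FTP, a mean of 1.27 ± 0.23 (SD, n = 6). In the 282 gaps of 10 to 29 positions it was 0.98 ± 0.19, lower on every array. The difference was -0.29 ± 0.05 (exact permutation p = 0.031, adjusted p = 0.0391), and with no bridging it was -0.06 and did not pass. The same strand ran the other way, 0.18 ± 0.13 in short and 0.42 ± 0.12 in long gaps, a difference of 0.24 ± 0.04 in 6 of 6 arrays. The lead of the opposite over the same strand was smaller in long gaps by 0.53 ± 0.06, in 6 of 6 arrays. The same-strand difference and this one are given with no test. The same-strand input that sets the length of a gap is also the denominator of its same-strand ratio. With stretches chosen on the inputs of the other replicate number, these long minus short differences were 0.26 and -0.59.

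By length class the opposite strand stood at 1.25 ± 0.22 in gaps of 3 to 5 positions, 1.31 ± 0.23 in gaps of 6 to 9, 1.09 ± 0.20 in gaps of 10 to 19 and 0.74 ± 0.18 in gaps of 20 to 29 (SD, n = 6). The same strand stood at 0.11 ± 0.13, 0.30 ± 0.14, 0.46 ± 0.13 and 0.32 ± 0.10. The share of same-strand probes with input well above background rose over these classes from 19.1% to 23.7%, 31.4% and 38.9%, and that of the opposite strand from 18.2% to 23.0%, 29.5% and 32.5%. The IP was well above background at 47.1%, 51.2%, 53.2% and 50.6% of the opposite-strand probes and at 28.2%, 35.9%, 45.4% and 50.5% of the same-strand probes. On the opposite strand the ratio was thus highest in gaps of 6 to 9 positions, and the IP share in gaps of 10 to 19. The part of the input in the ratios was not tested. At the limits of the rule, the 94 gaps of 3 positions had an opposite-strand ratio of 1.04 and the 119 tandem intervals of 2 positions, which are no members, 0.47. The 9 gaps of 29 positions had 0.62 and the 7 intervals of 30 positions 0.49.

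The stretches on either side of a gap differed from each other. Over the first 10 positions from its A end the next stretch had a same-strand ratio of 0.15 ± 0.07 (SD, n = 6), and over the last 10 positions before its B end the stretch before had -0.07 ± 0.04. The difference was 0.22 ± 0.03 in 6 of 6 arrays (exact permutation p = 0.031, adjusted p = 0.0391). The opposite strand showed the reverse order, 0.60 ± 0.17 beside the A end and 0.74 ± 0.11 beside the B end, a difference of -0.15 ± 0.07, negative on all 6 arrays, with the same p-values; among the 186 gaps that were quiet on both strands it was -0.07 and did not pass.

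The opposite strand was higher in the gap than in these flanks on 5 of 6 arrays. The difference was 0.48 ± 0.29 (exact permutation p = 0.0625, adjusted p = 0.0670), and the exception was replicate 2 of Red1-FTP, at -0.03. On the same strand the gap was 0.23 ± 0.13 above its flanks, a value given with no test, because the rule chose the flanks for an input above background and the gap for its lack. With input and IP raised to the lowest signal well above background the difference was 0.01. With the normexp background correction it was -0.06.

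Gaps of other arrangements served for comparison, 373 between divergent stretches, which lie A end to A end, and 147 between convergent stretches, B end to B end, all of 3 to 29 positions. Ends were compared in the 318 and 104 of them with 6 or more positions. In these gaps the opposite strand is the strand of the other stretch, whereas both stretches beside a tandem gap lie on its same strand. Lengths were not matched, with medians of 7 positions in tandem, 12 in divergent and 10 in convergent gaps of 3 to 29 positions. The part of strand role and length in the differences below was not tested. Next to the A end the opposite-strand ratio was 0.66 ± 0.13 in tandem and 0.66 ± 0.16 in divergent gaps, a difference of 0.00 ± 0.03 that was positive on 3 of 6 arrays (exact permutation p = 0.938). It was -0.10 in gaps between odd stretches and 0.11 in those between even stretches, each on 6 of 6 arrays, and -0.23 in gaps quiet on both strands. Next to the B end the opposite-strand ratio was 1.28 ± 0.25 in tandem gaps and 0.76 ± 0.14 in convergent gaps. Tandem gaps were higher by 0.28 to 0.69 within arrays, a mean of 0.52 ± 0.15 (exact permutation p = 0.031, adjusted p = 0.0391). The same strand next to the B end was lower in tandem gaps by a small amount, -0.08 ± 0.04 in 6 of 6 arrays, and passed in 13 of the 20 other settings; where the same strand was quiet it was 0.04.

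A few gaps were measured well enough to be described singly. The IP was above background at 80% or more of the probes on every array for 49 opposite strands and 8 same strands. With the same sign on 6 of 6 arrays and an adjusted p under 0.05 by limma, 44 opposite and 8 same strands remained. The filter on the IP, with none on the input, keeps strands with a high ratio, so their number, their direction and the values of the gaps named here are a description, with no test. Where input probes were not well above background, the ratio was also computed with the input raised to the lowest signal well above background on its array, and the fold then reads "at least".

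The highest opposite strands lay in short gaps. In sp40c_83251 to sp40c_83256, 3 positions between even stretches, the opposite-strand ratio was 5.61 and 4.51 with Red1-FTP, 5.44 and 5.31 in Mtl1-FTP, and 4.97 and 4.55 with Red5-FTP. The mean was 5.06 ± 0.15 (SE), at least 18.3-fold, and the same strand stood at 1.35. All opposite-strand IP probes of this gap were above background on all arrays, and 33.3% of the input values were. In sp40c_110381 to sp40c_110392, 6 positions, it was 4.85 and 4.76, 4.99 and 5.2, and 5.11 and 5.01 for the same order of baits, the closest values among these 5 gaps. Its mean was 4.99 ± 0.09 (SE), at least 16.5-fold, and on its same strand no input value was above background. With the input raised in this way the same strands of these 5 gaps lay between -0.89 and 0.54.

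In sp40c_116349 to sp40c_116356, 4 positions between odd stretches, the opposite strand was at 4.70 ± 0.13 (SE), between 4.18 and 5.17, at least 10.9-fold, and the same strand at 0.27. Here the opposite strand of the stretch before was also high, at 3.84, while that of the next stretch was at 0.30. In sp40c_90259 to sp40c_90268, 5 positions, it was at 4.66 ± 0.31, and its values spread most, from 2.76 in replicate 2 of Red1-FTP to 6.02 in replicate 1 of Red5-FTP. In sp40c_81355 to sp40c_81362, 4 positions, it was at 4.48 ± 0.17, between 3.49 and 5.17, with the same strand at 0.31.

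Other gaps had the widest distance between the strands. In sp40c_110465 to sp40c_110476, 6 positions between odd stretches, the opposite strand was at 3.86 ± 0.18 (SE), between 2.98 and 4.46, and at least 6.65-fold enriched, while the same strand was at -1.10 ± 0.11, negative on all 6 arrays, with the IP above background at 16.7% and the input at 38.9% of its values. The difference was 4.96 ± 0.16, but with so little same-strand IP above background its size is not firm. In sp40c_42063 to sp40c_42068, 3 positions, the opposite strand was at 3.83 ± 0.19, at least 6.27-fold. The IP was above background at 5.56% and the input at 0% of its same-strand values, so that strand was hardly measured and the distance of 3.98 that ranked the gap has no firm size.

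The same strand led in a smaller set. In sp40c_11211 to sp40c_11260, 25 positions between even stretches, the same-strand ratio was 2.83 and 3.47 with Red1-FTP, 2.85 and 3.06 in Mtl1-FTP, and 1.80 and 3.32 with Red5-FTP, a mean of 2.89 ± 0.20 (SE), at least 4.84-fold. The stretches beside it stood at -0.33 and close to 0 on that strand, and the opposite strand of the gap at 1.09. The gap was the second widest of those measured well, with the IP above background at 85.3% and the input at 49.3% of the same-strand values. In sp40c_74907 to sp40c_74926, 10 positions, the same strand was at 2.83 ± 0.11, between 2.36 and 3.44, at least 4.89-fold, and the opposite strand at 1.07. There the stretch before was at -0.07 and the next stretch at 3.37, so the same strand stayed high past the A end. With the input raised, the opposite strands of these 2 gaps were at 0.03 and -0.84.

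The other gaps named for a high same strand, or for a same strand above the opposite, were short. In sp40c_9451 to sp40c_9464, 7 positions, either strand was high, the same at 2.48 ± 0.11 and the opposite at 3.56 ± 0.13. In sp40c_118253 to sp40c_118258, 3 positions, the same strand was at 2.41 ± 0.15 and the opposite at 1.19 ± 0.21. In sp40c_85125 to sp40c_85138, 7 positions, the strands stood at 1.85 and 1.90, and their difference was 0.05 ± 0.10. In sp40c_78131 to sp40c_78146, 8 positions, the same strand was at 1.78 ± 0.17 with the opposite strand lower by 1.28 ± 0.13.

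The widest gap measured well was sp40c_78407 to sp40c_78464, 29 positions between even stretches. Its opposite strand had the IP above background at 93.1% and the input at 62.6% of the values, so here the ratio rests mostly on measured input. The ratio was 2.32 and 1.27 with Red1-FTP, 1.92 and 2.20 in Mtl1-FTP, and 1.86 and 1.42 with Red5-FTP, a mean of 1.83 ± 0.15 (SE), at least 2.45-fold. The same strand was at 0.88 ± 0.10.

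**Figure D5:**
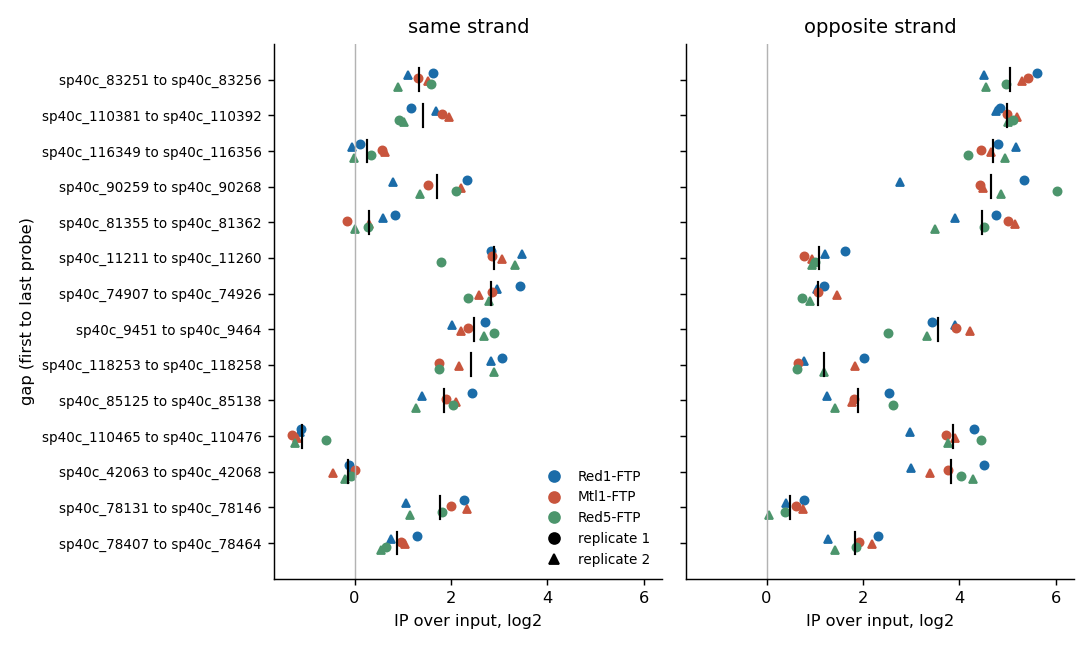
IP over input (log2, horizontal axis) of the 14 named gaps on the same strand (left) and the opposite strand (right). Points are arrays, coloured by bait with a circle for replicate 1 and a triangle for replicate 2, and black ticks are means; the first 5 gaps lie at 2.76 or above on the opposite strand on every array.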

How the data were processed

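The labels give 2 biological replicates of each of 3 baits, and every replicate 1 array. The scanner tables deposited by the authors come from Agilent Feature Extraction 10.7.3.1, per the submitters' processing notes. Their processed signals are deposited intensities from which that software removed background and dye bias, and ratios of probes near background rest on what was left after that removal. The deposited median signals and backgrounds are intensities as scanned. The deposited flags and scores mark spots as well above background, outlying or saturated. The series value table, deposited by the authors as log2 of IP over input, equals the scanner ratio set to 0 where the p-value of the software, also deposited, was 0.05 or more, which held for 53.9 to 63.8% of the probes, and was used as an alternative. Array data give no counts, so the number of arrays limits the precision.

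Log2 of processed Cy5 over Cy3 was centred on the median of non-control probes, without loess, and 2 to 9 outlier spots per array were dropped. Probe order was checked by the correlation of mean log2 input 1 to 4 numbers apart (-0.19, 0.72, -0.20 and 0.66). Class values were means over gaps, with 3 positions for an end and 10 for a flank, and were tested with a two-sided exact sign-flip permutation test over the 6 arrays, adjusted by the Benjamini-Hochberg method over 15 contrasts. Single segments and probes were fitted with limma 3.58.1 in R 4.3.3 on bait means, adjusted over all segments or probes. Both tests were tested on simulated data. Gaps named singly had the IP above background at 80% or more of a strand's probes on every array, the same sign on 6 arrays and an adjusted p under 0.05, and are the 5 highest opposite strands, the 5 highest same strands, the 3 lowest, the 4 largest and 3 lowest differences and the 2 widest gaps, with any strand called between baits. The 3 lowest were read as depleted strands, and none passed the filter on the IP, nor was any called between baits. The members, lists and tests were chosen with earlier results of these data known. Alternatives are given in the closing section.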

Additional observations from a re-analysis of the deposited data

Results flagged for a closer look

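Of 59 sets of 6 arrays examined (class values, contrasts and the named gaps), 2 had an array whose distance to its nearest neighbour exceeded Dixon's critical share of the range, as chance does in about 1 of 20 sets. The input share of the opposite strand was 35.3% in replicate 2 of Mtl1-FTP and 21.3 to 23.1% on the other 5 arrays. The difference between the strands of sp40c_110465 to sp40c_110476 was 4.12 in replicate 2 of Red1-FTP and 5.01 to 5.42 on the others.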

How the results depend on the processing

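Across 20 other settings, the contrast of the opposite with the same strand (0.47 to 1.28), that of the opposite strand at the A and B ends (-0.97 to -0.31) and the excess of tandem over convergent gaps (0.24 to 0.77) kept direction and call. All 287 values of the named gaps under the alternatives did too. These gaps were picked on the same arrays for passing the call with 1 sign, most of them as extremes, so this was largely built in. Of 300 contrast values, 257 kept direction and call, 12 lost the call, 14 gained it and 17 changed sign. Causes were not tested. Settings on stretch length in positions, on gaps quiet on the same strand or on either strand, and without gaps under an opposite stretch were chosen after seeing the data.

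The same strand at the B minus the A end was -0.038 in the series table, -0.16 with no bridging, 0.026 with 2 off probes bridged, 0.011 before dye normalization, 0.015 with stretches of 20 or more, -0.076 with stretch length in positions, -0.066 with a quiet opposite strand, 0.11 with a quiet same strand, 0.16 with both quiet and -0.060 in odd gaps. The opposite strand in gap minus flanks passed with normexp (0.30), normexp and loess (0.31), the series table (0.51), a floor on both channels (0.39), detected values only (0.82), a quiet same strand (0.65) and odd gaps (0.54). On the same strand this difference was -0.058 with normexp, 0.012 with the floor, 0.067 with both quiet, 0.13 for the median over gaps and 0.17 in odd gaps. The opposite strand of next minus previous stretch was -0.072 with both quiet, and long minus short gaps -0.065 with no bridging. Tandem minus divergent gaps were 0.021 with normexp and loess, 0.011 with normexp and with 2 off probes bridged, 0.012 with no bridging, 0.0065 in the series table, 0.026 with the floor, 0.059 for detected values, 0.022 with a quiet same strand, -0.23 with both quiet, -0.10 in odd and 0.11 in even gaps. Tandem minus convergent gaps on the same strand were -0.094 before dye normalization, -0.033 with normexp and with the floor, -0.049 with stretches of 20 or more, 0.043 with a quiet same strand, -0.096 with both quiet and -0.016 in even gaps. The IP share was -7.26 points with no bridging.

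With a log2 ratio of 1 or more also required, 48.8% of opposite strands were enriched and 0% depleted, 14.3% of same strands enriched and 1.8% depleted, and the opposite strand was above the same strand in 42.2% of gaps and below in 4.23% (7.53% with both quiet). Centred on the mean, 15.8% of opposite strands were depleted, and 23.8% of same strands were enriched and 45.4% depleted. Depleted opposite strands were 8.91% with normexp and 0.876% with the floor, and depleted same strands 25.1% with normexp and loess and 4.96% with the floor. With slide as a fixed block, 0.0730% of strands differed in the pair Red1-FTP, Red5-FTP, and 8.54% in the pair Mtl1-FTP, Red5-FTP. For single probes, enriched opposite probes were 21.2% in the series table and 69.8% among detected values, and enriched same probes 9.51% and 44.2%. Depleted opposite probes were 28.5% with the mean centre, 11.4% before dye normalization, 15.9% with normexp, 11.5% with normexp and loess, 2.51% in the series table and 2.81% with the floor. Depleted same probes were 40.9% with the mean centre, 21.6% with normexp, 19% with normexp and loess, 4.19% in the series table and 4.01% with the floor. Shares of all segments or probes under these settings are not given here, and those of the main setting do not apply.

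Leaving out each array in turn, the opposite minus the same strand ran from 0.84 to 0.91. The opposite strand at the A minus the B end ran from -0.67 to -0.60, and in the gap minus its flanks from 0.42 to 0.58. Dropping 1 of 6 arrays cannot move a mean by 1 SD of the arrays, so small moves do not show stability. With 5 arrays the exact test cannot give a p below 0.0625, so none was given. The shares ran from 3.07 to 4.82% for depleted opposite strands, 10.4 to 15.9% for depleted same strands, 3.66 to 6.95% for depleted opposite probes, 16.8 to 28.4% for enriched same probes and 5.65 to 11.5% for depleted same probes. Same-numbered arrays of different baits deviated together for Red1-FTP and Red5-FTP (r = 0.45 over 1370 strands). They did not for Mtl1-FTP with Red1-FTP (-0.25) or Red5-FTP (-0.21). Red1-FTP and Red5-FTP shared a slide in replicates 1 and 2, and Mtl1-FTP shared it only in replicate 1. The part of slide in these correlations was not tested, and the main counts and exact tests use no block. With slide as a random block 478 opposite strands were enriched and 24 depleted. With slide as a fixed block Mtl1-FTP rests on 1 array, so no count is given. With the replicate block 74.5% of opposite strands were enriched and 4.82% depleted, 39.1% of same strands were enriched and 15.6% depleted, the opposite strand was above in 67.4% of gaps and below in 12.3%, and 0% differed between baits. The shares of all segments or probes with an array left out or with a block are not given in this section. Those of the main setting do not apply, so these values cannot be set against a background. Most ratios in the gaps rest on input near background, which limits them.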
